A study of Mus musculus with 8 samples.

Results

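The genes of MHC class II antigen presentation were followed in the whole blood of mice under chronic hypoxia. The set holds 10 probe sets of 7 genes, out of 45037 probe sets tested on each of 8 Affymetrix mouse arrays. They were chosen by probe set ID, and the gene names are those of the array's annotation as supplied with that choice. All 10 were found in the deposited table, and no filter on low values removed any of them.

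MHC class II molecules are heterodimers of an alpha and a beta chain that carry peptides from the endosomes to the cell surface, where CD4+ T cells read them. In mice H2-Aa and H2-Ab1 encode the chains of I-A, and H2-Eb1 encodes the beta chain of I-E. Cd74 encodes the invariant chain, which guides new class II molecules to the endosomes and keeps their groove closed, and H2-DMa and H2-DMb1 encode the chaperone H2-DM that exchanges the remaining fragment for peptide. Ciita encodes the transactivator that switches these genes on together. In blood the family is known from B cells, dendritic cells and a part of the monocytes.

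The control group was 4 samples of blood from mice at room condition. The hypoxia group was 4 samples from mice in a closed chamber, where oxygen was brought down from 21% to 8% within 14 days and the blood came from the vena cava on day 15. RNA was taken from 100 µl of blood in control and from 500 µl in hypoxia, so hypoxia and blood volume cannot be told apart in any difference below. Strain, sex and age are not given in the sources used here, nor is it said that each sample was a separate animal, so the p-values below cover only the spread among the samples, which may be technical. Intensities are on the authors' linear scale, and differences are hypoxia minus control of log2 intensity. In bulk blood, fewer class II cells, less class II RNA per cell and more RNA of other genes cannot be told apart. The makeup of the blood could not be read from cell markers, since the tables used here pair no other probe set with a gene.

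Because class II genes are known to be switched on together through a shared promoter module, the stretch before the start of 3 members is shown. The X box of that module binds RFX, the Y box binds NF-Y, and CIITA is recruited by the proteins bound there. The sequences are RefSeq promoters of build GRCm38.p6, from 150 to 31 bases before the annotated start, in the direction of transcription. Capitals mark GNAACT, a piece resembling the core of the X box, and TGATTGG, which holds the inverted CCAAT of the Y box, where the second begins within 40 bases after the first begins.

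H2-Aa, chr17:34287854-34287973, minus strand: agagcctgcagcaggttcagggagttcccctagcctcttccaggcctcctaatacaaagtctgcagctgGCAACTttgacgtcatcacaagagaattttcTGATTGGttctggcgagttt
H2-Eb1, chr17:34305717-34305836, plus strand: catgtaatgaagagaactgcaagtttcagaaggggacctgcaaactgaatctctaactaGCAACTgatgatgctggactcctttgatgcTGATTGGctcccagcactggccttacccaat
H2-DMb1, chr17:34153041-34153160, plus strand: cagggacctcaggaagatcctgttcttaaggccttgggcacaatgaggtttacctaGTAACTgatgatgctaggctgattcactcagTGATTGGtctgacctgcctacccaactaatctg

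The 2 motifs began 31 bases apart in H2-Aa and H2-DMb1 and 30 bases apart in H2-Eb1. TGATTGG began 50, 61 and 63 bases before the start in H2-Aa, H2-Eb1 and H2-DMb1, respectively. Both strands of all 32851 RefSeq promoter windows, of the same length as the members' own windows and longer than the printed stretches, were searched. GNAACT was in 42.8% of them, TGATTGG in 7.82% and the ordered pair in 0.274%. The motif letters were picked after these promoters had been read, so the match describes them and tests nothing. Neither of the 2 windows listed for H2-DMa held the pair. The promoters of Cd74, H2-Ab1 and Ciita were not examined.

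In hypoxic blood 9 of the 10 probe sets were lower than in control on every array, without overlap between the groups. The exception was one of the Ciita probe sets. As deposited, 10.5% of all probe sets were lower without overlap. By limma, at a Benjamini-Hochberg adjusted p under 0.05 over all probe sets, 2 of the 10 fell, H2-Eb1 and the other Ciita probe set, against 2.6% of all probe sets. None of the 10 rose, against 3.65% of all, and none was higher at an unadjusted p under 0.05 either, against 13.9% of all. At that level 9 were lower, against 11.6% of all. The median difference of the 10 was -1.83, against 0.19 over all probe sets tested.

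**Figure D1:**
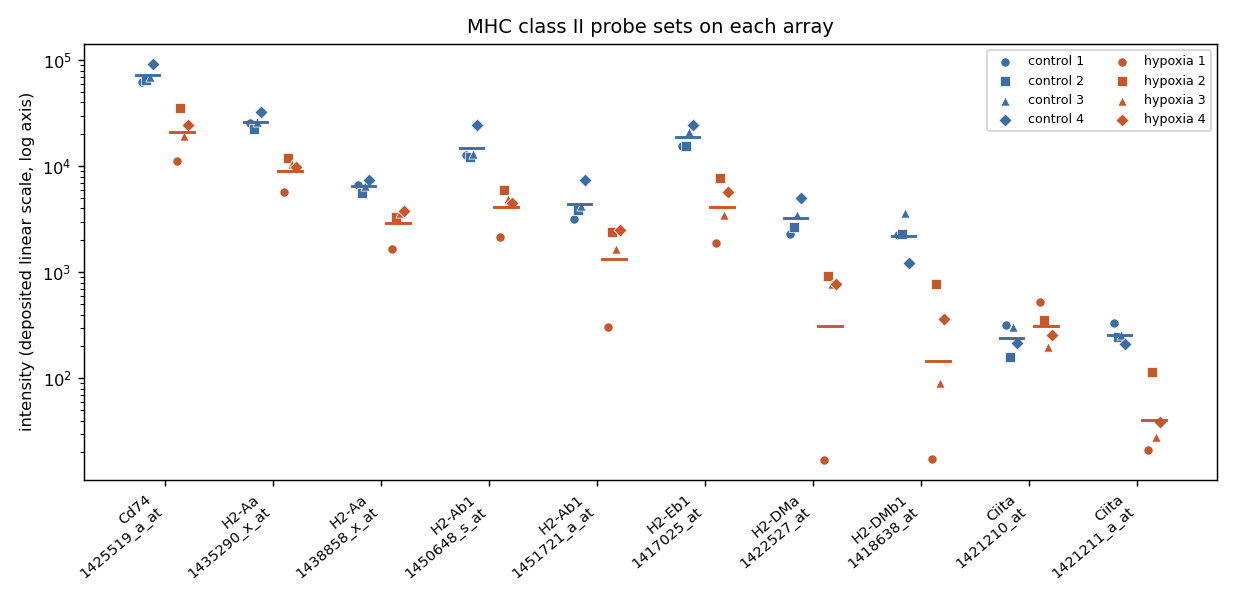
Deposited intensity (log axis) of the 10 probe sets on each array, with control arrays in blue and hypoxia arrays in orange; bars are the group means of log2 intensity (n = 4). For 9 probe sets all hypoxia points lie below all control points, and for Ciita 1421210_at they mix.

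H2-Eb1, the beta chain of I-E, showed the clearest fall among the chain genes. Its probe set 1417025_at had intensities of 15586, 15622, 21182 and 24545 in control and 1883, 7687, 3504 and 5759 in hypoxia. The highest hypoxia array, hypoxia 2, was at less than the lowest control array. The difference was -2.19 (SE 0.51, limma adjusted p = 0.0436), a 4.56-fold fall. This call was lost when any 1 array other than hypoxia 2 was left out, with differences of -2.35 to -1.81 in these smaller sets.

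H2-Aa, the alpha chain of I-A, was read by 2 probe sets whose suffix x marks probes that may also bind other transcripts. On 1435290_x_at the controls stood at 25362, 22704, 25900 and 32487 and the hypoxia arrays at 5678, 11910, 10435 and 9749. The groups were apart, and the difference of -1.53 (SE 0.38) just missed the threshold (limma adjusted p = 0.0521). On 1438858_x_at the controls were at 6671, 5602, 6542 and 7348 and the hypoxia arrays at 1666, 3320, 3589 and 3820. Here the difference was the smallest of the 9 lower probe sets, at -1.14 (SE 0.40, limma adjusted p = 0.119).

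H2-Ab1, the beta chain of I-A, was also read by 2 probe sets. On 1450648_s_at, whose suffix s marks probes shared by related transcripts, intensities were 12689, 12257, 13192 and 24697 in control and 2135, 5926, 4925 and 4518 in hypoxia. Control 4 stood well above the other controls, and the groups did not overlap. The difference was -1.87 (SE 0.46, limma adjusted p = 0.0509). On 1451721_a_at the controls were at 3213, 3857, 4178 and 7446 and the hypoxia arrays at 304, 2410, 1667 and 2532. The groups were apart here too, but hypoxia 1 was far below the other hypoxia arrays, and the difference of -1.74 had a wide error (SE 0.72, limma adjusted p = 0.174).

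Cd74, the invariant chain, was read by 1425519_a_at. Its intensities were 63000, 65621, 70266 and 92677 in control and 11179, 35741, 19236 and 24672 in hypoxia. All hypoxia arrays were below all controls, by 3.45-fold between the means of log2 values. The difference of -1.79 (SE 0.44) just missed the threshold (limma adjusted p = 0.0518).

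The H2-DM genes had the largest differences of the 10 and also the widest errors. H2-DMa on 1422527_at went from 2319, 2648, 3492 and 5076 in control to 17.1, 922, 779 and 783 in hypoxia. Hypoxia 1 was the array apart, at an intensity within the dimmest 10% of its probe sets, which ended at 19.4. With it the difference was -3.37 (SE 1.24, limma adjusted p = 0.135), and without it -1.97 (SE 0.42, limma adjusted p = 0.0604).

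H2-DMb1 on 1418638_at went from 2234, 2290, 3662 and 1217 in control to 17.2, 773, 89.7 and 366 in hypoxia. The hypoxia arrays were spread over a wide range, all below the lowest control, and hypoxia 1 was again within the dimmest 10%. The difference was -3.92 (SE 1.10, limma adjusted p = 0.0693), and -2.89 (SE 0.78, limma adjusted p = 0.0938) without hypoxia 1. The sizes for both H2-DM genes thus rest in part on dim values, and with 100 added to every intensity before log2 they were -2.59 for H2-DMa and -2.89 for H2-DMb1.

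Ciita, the transactivator, gave different pictures on its 2 probe sets. On 1421211_a_at, whose suffix a marks probes shared by transcripts of the same gene, controls were at 331, 245, 259 and 211 and hypoxia arrays at 21.0, 116, 28.2 and 38.8. All hypoxia arrays were lower, and the probe set fell by 2.67 (SE 0.56, limma adjusted p = 0.0340), or 6.38-fold. On 1421210_at controls were at 316, 159, 302 and 218 and hypoxia arrays at 521, 351, 197 and 256. The groups overlapped, and the difference was 0.37 (SE 0.45, limma adjusted p = 0.647). The array medians were 163 to 202 in control and 230 to 245 in hypoxia, so 1421211_a_at was above its array median on all 4 controls and below it on all 4 hypoxia arrays. With 100 added to every intensity before log2, the difference of 1421211_a_at was -1.29 (limma adjusted p = 0.0101), so its size too rests in part on dim values. As deposited, its call was also lost when any 1 array other than hypoxia 2 was left out, at -2.77 to -2.36. With a trended and robust prior it had an adjusted p of 0.0524 in limma.

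On the deposited scale the mean intensity without the lowest and highest 2% of values was 500.0 on each of the 8 arrays. Of the untrimmed summed intensity, the members held 0.279% to 0.388% on control arrays and 0.0288% to 0.0965% on hypoxia arrays. The members' own summed intensity was 131006 to 195920 on control arrays and 23421 to 69157 on hypoxia arrays. The share also depends on the untrimmed total, which was larger on every hypoxia array than on any control array. Why either of them moved was not tested. The members were read under other scalings as well. The median difference of all probe sets was 0.19 as deposited, 0.00 after quantile normalization, -0.15 after centring on array medians, -0.74 with each array centred on its hybridization controls, and 0.17 with Actb as the reference. The same count of 9 members was lower without overlap under each of these scalings. The share of all probe sets doing so was 10.9% after quantile normalization, 14.8% after centring on array medians, 22.7% with the hybridization controls as reference, and 8.63% with Actb as reference.

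Calls moved more than directions did. After quantile normalization 5 of the 10 fell by limma, against 2.36% of all probe sets. These included Cd74 at -2.89 (adjusted p = 0.0153), H2-Aa 1435290_x_at at -2.33 (adjusted p = 0.0180) and H2-Ab1 1450648_s_at at -2.32 (adjusted p = 0.0255). After centring on Actb, a cytoskeletal actin, none of the 10 passed in limma, against 0.906% of all probe sets called lower. At an unadjusted p under 0.05, 9 were lower there, against 10.5% of all. The sign of Ciita 1421210_at turned with the scaling, to -0.57 after centring on the hybridization controls (adjusted p = 0.499 in limma).

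**Figure D2:**
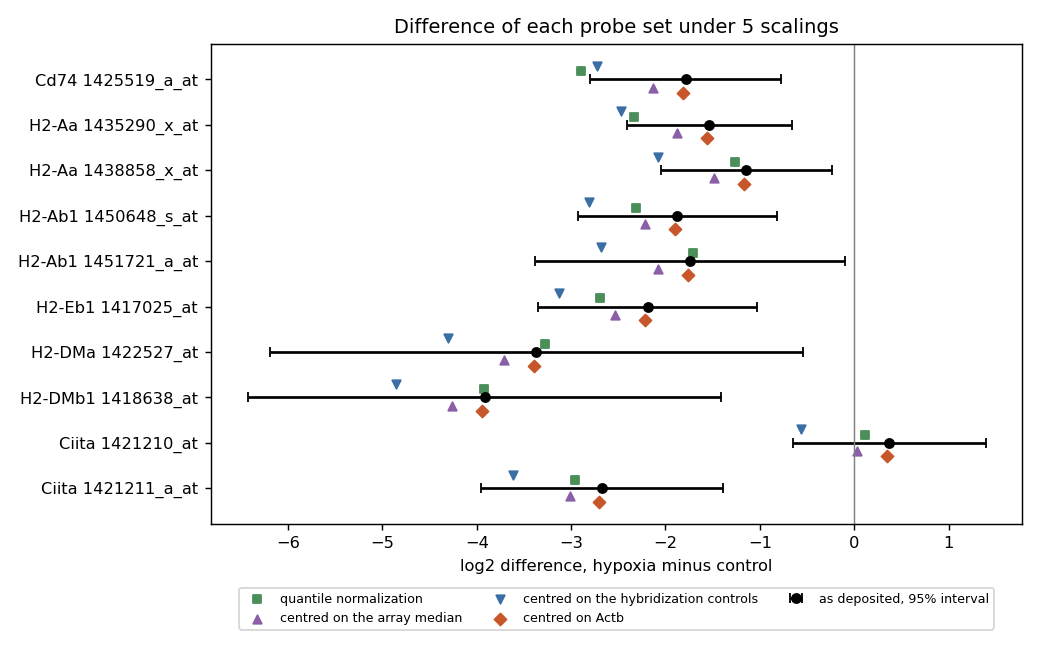
Log2 difference, hypoxia minus control, of each probe set; black points with bars are the deposited scale with the 95% interval of the limma fit, and coloured marks are 4 other scalings. Under every scaling shown 9 probe sets lie left of 0, and Ciita 1421210_at crosses it.

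Lower levels in hypoxia were common among bright probe sets, and most members are bright. The 8941 probe sets whose mean log2 level over all arrays was at least that of H2-DMb1, 9.13, had a median difference of -0.28. Of these, 32.2% were lower without overlap and 9.01% fell by limma. Within that range the difference of Cd74 lay at the 8.19th percentile, those of H2-Aa at the 13.7th and 25.1th, those of H2-Ab1 at the 6.86th and 9.10th, and that of H2-Eb1 at the 3.00th. No percentile is given for the H2-DM genes, since the level of H2-DMb1 set the range and both were far dimmer in hypoxia than in control. The chain genes and Cd74 were thus in the lower part of the range of bright probe sets, not outside it.

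**Figure D3:**
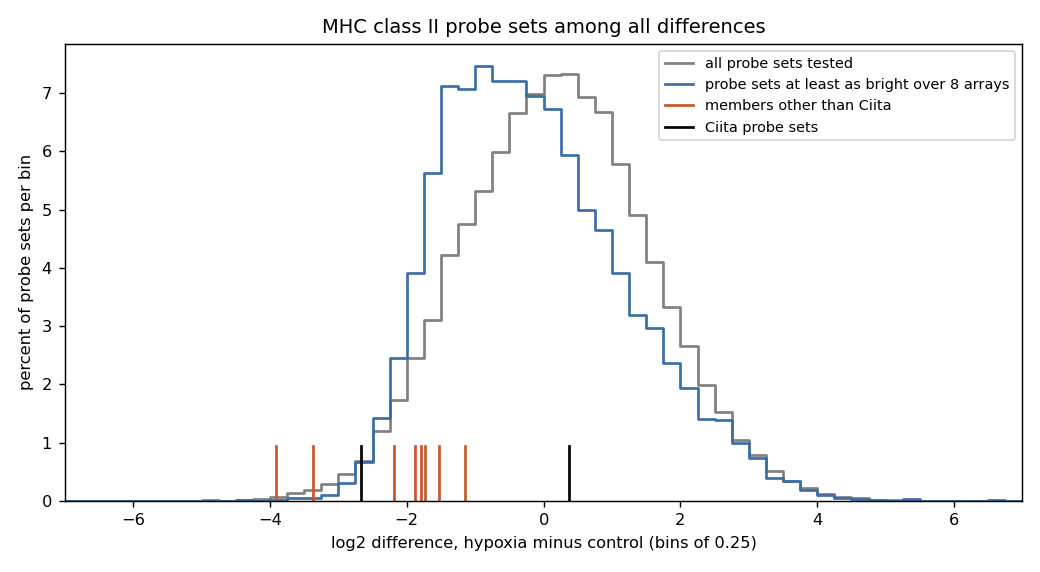
Share of probe sets (percent per bin) by log2 difference, for all probe sets tested and for the 8941 at least as bright over 8 arrays as H2-DMb1; vertical ticks are the members. The 8 ticks of members other than Ciita lie between -3.92 and -1.14.

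Most members were low on hypoxia 1 and high on hypoxia 2, relative to their hypoxia means. Hypoxia 1 was the lowest hypoxia array for 9 of the 10 and hypoxia 2 the highest for 7, whereas over all probe sets these arrays were lowest or highest in 24.8% and 24.7%. The median deviation of the members from their hypoxia means was -0.94 on hypoxia 1, 0.82 on hypoxia 2, 0.04 on hypoxia 3 and 0.31 on hypoxia 4. On hypoxia 3 the members were of mixed sign, from -0.69 for H2-DMb1 to 1.32 for H2-DMa. Probe sets of the same gene are not independent. Over all probe sets the median deviation was 0.05 to 0.11 on these arrays. The mean Pearson r of an array with its own group across probe sets was 0.701 for hypoxia 1. It was between 0.681 and 0.703 for all hypoxia arrays, and higher, between 0.778 and 0.790, for the control arrays. Hypoxia 1 thus stood low in class II probe sets without standing apart over all probe sets. Among controls, control 4 was highest for 7 of the 10, against 22.9% of all probe sets.

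The spread was larger in hypoxia than in control for all 10 members, against 60.3% of all probe sets. The median ratio of the SDs was 2.78 for the members, 1.22 over all and 1.36 over the brightest 10%. These SDs include hypoxia 1, the lowest hypoxia array for 9 of the 10, and were not computed without it. On the other hypoxia arrays H2-DMa stood at a log2 intensity of 9.61 to 9.85, against 11.18 to 12.31 on controls. H2-DMb1 still ran from 6.49 to 9.59 there, against 10.25 to 11.84 on controls. Without hypoxia 1, the differences were -1.49 for Cd74, -1.31 and -0.87 for H2-Aa, -1.56 and -1.03 for H2-Ab1 and -1.81 for H2-Eb1, and no member was called by limma, against 0.655% of all probe sets called lower. At an unadjusted p under 0.05, 8 of the 10 were lower in that set, against 10.8% of all.

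**Figure D4:**
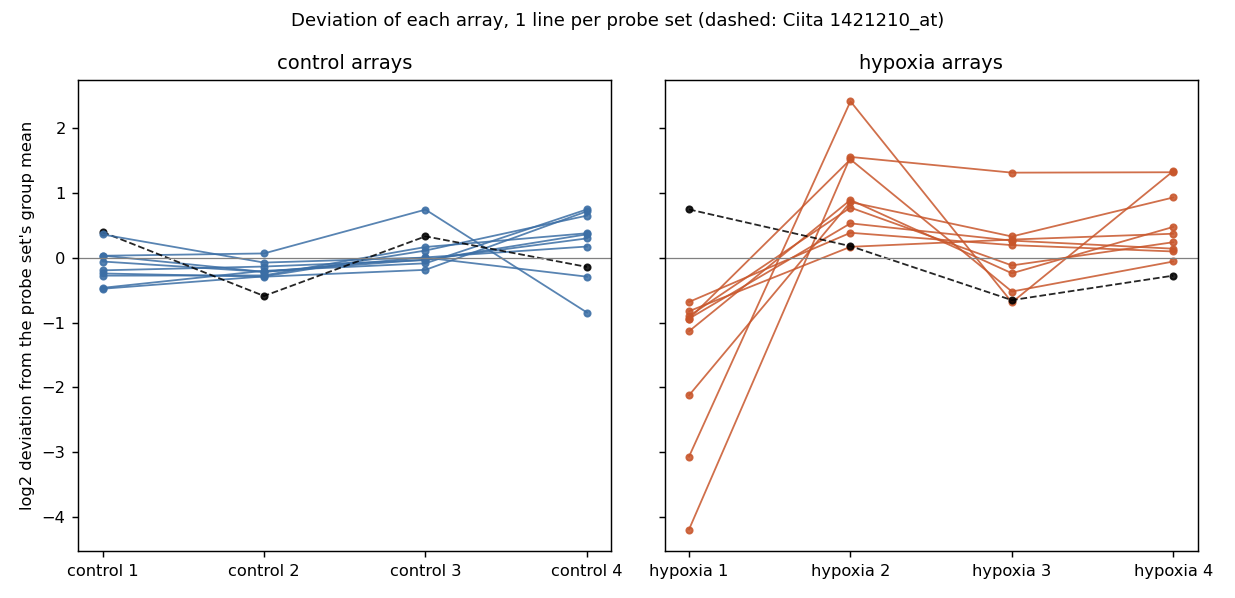
Log2 deviation of each array from the group mean of the same probe set, 1 line per probe set, in control (left) and hypoxia (right). In hypoxia 9 lines are below 0 on hypoxia 1 and all 10 are above 0 on hypoxia 2; the dashed line is Ciita 1421210_at.

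Differences taken within an array do not depend on that array's scaling factor, and 9 of them were compared between the groups by a two-sided exact permutation test, adjusted over the 9. None passed an adjusted p under 0.05. The smallest p that 4 against 4 arrays allow is 0.0286, and 2 differences reached it, each with separated groups.

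The first was between the Ciita probe sets. On controls 1421211_a_at minus 1421210_at was 0.07, 0.62, -0.22 and -0.05, and on hypoxia arrays it was -4.63, -1.60, -2.81 and -2.72. The probe sets of the same gene thus parted, with a change of -3.05 (SE 0.65, exact 95% interval -5.25 to -1.38, exact p = 0.0286, adjusted p = 0.129). With 100 added to every intensity the change was -1.57. The second was between the H2-Aa probe sets, where 1435290_x_at changed more than 1438858_x_at by -0.39 (SE 0.12, exact 95% interval -0.79 to -0.09, exact p = 0.0286, adjusted p = 0.129), and by -1.07 after quantile normalization. The H2-Ab1 probe sets differed in change by -0.13 (SE 0.43, exact 95% interval -1.14 to 1.15, exact p = 0.743).

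Cd74 stayed close to the chain genes. Cd74 minus the mean of H2-Aa, H2-Ab1 and H2-Eb1 was 2.53, 2.62, 2.47 and 2.42 on the control arrays and 2.74, 2.66, 2.29 and 2.33 on the hypoxia arrays. The change was -0.01 (SE 0.12, exact 95% interval -0.33 to 0.31, exact p = 0.943), but quantile normalization, which is no common factor per array, gave -0.73 (exact p = 0.0286, adjusted p = 0.0857). H2-Aa minus H2-Ab1 changed by 0.47 (exact 95% interval -0.29 to 1.74, exact p = 0.200) and H2-Eb1 minus H2-Ab1 by -0.38 (exact 95% interval -1.22 to 0.36, exact p = 0.171).

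The H2-DM genes relative to the chain genes were at -2.26, -2.11, -1.83 and -2.80 in control and at -6.61, -2.75, -3.90 and -3.20 in hypoxia. Hypoxia 2 overlapped with control 4, and the change of -1.86 (SE 0.89, exact 95% interval -4.78 to 0.04) had an exact p of 0.0571 and an adjusted p of 0.171. Without hypoxia 1 it was -1.03. The H2-DM genes differed from each other by 0.55 in change (exact 95% interval -2.07 to 3.18, exact p = 0.543). Ciita, averaged over its discordant probe sets, changed by 0.63 relative to the chain genes (exact 95% interval -0.65 to 2.33, exact p = 0.229). That change was 0.28 without hypoxia 1 and 1.23 with 100 added to every intensity (exact p = 0.0286, adjusted p = 0.0857).

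**Figure D5:**
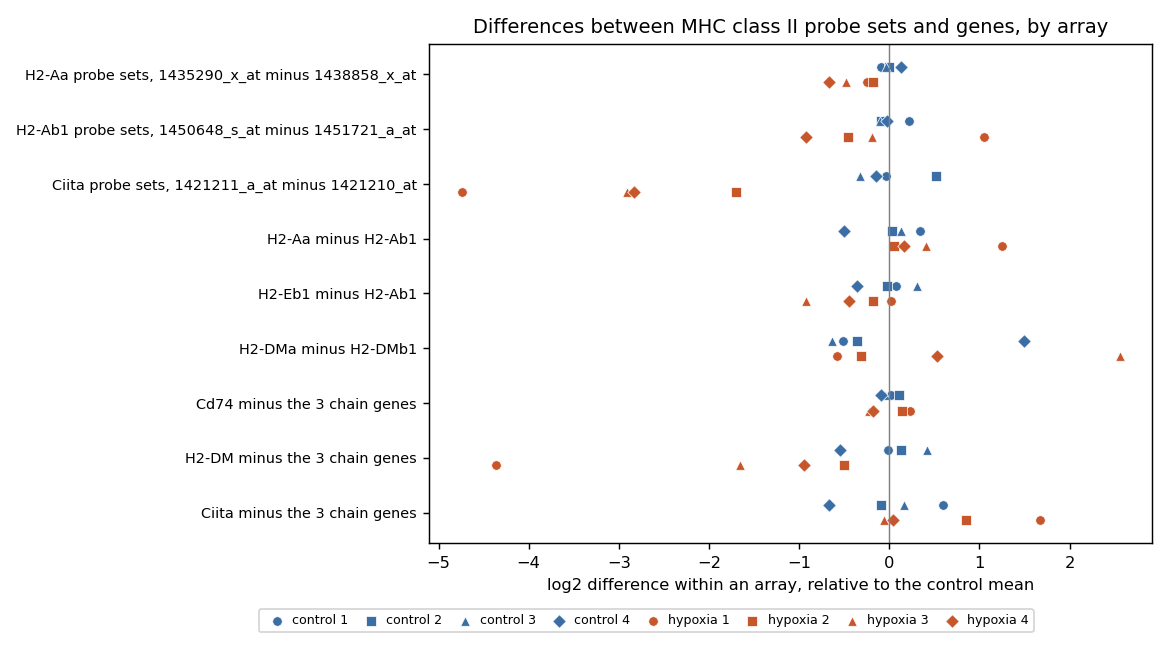
The 9 within-array log2 differences on each array, shown relative to their control mean, with control arrays in blue and hypoxia arrays in orange. The Ciita pair is shifted on all 4 hypoxia arrays, and Cd74 minus the chain genes stays near 0.

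The authors' deposited table, a SAM analysis (significance analysis of microarrays) of the same blood made from other values, lists all 10 probe sets. Of these, 9 were lower in the authors' deposited table with a q-value under 5%, against 41.1% of the 19916 listed probe sets. Its log2 differences were -2.82 for Cd74, -2.71 for H2-Eb1, -2.55 and -2.19 for H2-Ab1, and -2.47 and -1.18 for H2-Aa, each with a q-value of 0%. The authors' deposited table gave H2-DMa at -2.50 and H2-DMb1 at -1.78, both with a q-value of 0%, between the highest and the lowest of the chain probe sets. For Ciita it gave -0.69 with a q-value of 0.721% on 1421211_a_at and 0.07 with a q-value of 23.7% on 1421210_at. The median of the members in the authors' deposited table was -2.33, against -0.18 over all listed probe sets.

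The probe sets most like the class II chains over the 8 arrays were 1451294_s_at, with a Pearson r of 0.996 to the mean of the 5 chain probe sets, and 1452416_at, also at 0.996. No table used here names their genes. Their r over deviations from the group means was 0.986 and 0.995, and their differences were -1.71 and -0.94. Among the members outside the chain genes, r over deviations was 0.946 for Cd74, 0.959 for H2-DMa, 0.770 for H2-DMb1, 0.585 for Ciita 1421211_a_at and -0.51 for Ciita 1421210_at. These values are descriptions over arrays that share the group difference and the low level of hypoxia 1. The 2 probe sets outside the members were picked for the largest r, and over 8 arrays such picking by itself favours high values.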

How the data were processed

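Blood RNA was copied from an oligo(dT) primer and labelled with biotin, per the labels' protocols. The deposited value table holds 1 linear intensity per probe set and array. GCRMA, RMA and Partek are listed in the submitters' processing notes, with no word on which of them gave these values. The authors' deposited SAM table holds a score, a fold ratio, a difference of group means on the log2 scale and a q-value in percent, per the file headers. It was described and not tested.

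Intensities under 1 were set to 1 (14 values), log2 was taken, 64 control probe sets were set aside, and 45037 entered a limma fit (version 3.58.1, R 4.3.3, lmFit and eBayes without covariates), with Benjamini-Hochberg adjustment over all of them. Within-array differences were tested by exact permutation in Python 3.11.15, averaging a gene's probe sets first. Both steps were tested on simulated data with no difference in spread between the groups. The larger spread of the hypoxia arrays was not covered by these tests. With 4 arrays per group their number limits the precision. The members and lists were chosen with earlier results of these data known, and every member is named. A further 12 lists (179 genes of the pathway and of blood cell types) could not be used, since 0 genes could be matched to probe sets. Alternatives covered scaling, offsets of 16 and 100, a filter on dim probe sets (mean log2 level under 6), the variance prior, array weights, a replicate block and each array left out. The numbers 1 to 4 were not taken as pairs in the main fit. The deviations of same-numbered arrays from their group means correlated at -0.02 to 0.01, and those of arrays with unlike numbers at -0.02 to 0.02. These values show no shared shift across probe sets, but cannot show whether the samples were paired.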

Additional observations from a re-analysis of the deposited data

Results flagged for a closer look

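In 38 sets of 4 arrays (each member and each within-array difference in each group), 4 held an array far from the other 3 by Dixon's ratio, where chance gives about 1.9. H2-DMa 1422527_at had a log2 intensity of 4.09 in hypoxia 1, against 9.61 to 9.85 on the other hypoxia arrays. H2-Aa 1438858_x_at stood at 10.70 in hypoxia 1, against 11.70 to 11.90. H2-Ab1 1450648_s_at stood at 14.59 in control 4, against 13.58 to 13.69 on the other controls. The log2 difference of H2-DMa minus H2-DMb1 was 2.06 in control 4, against -0.07 to 0.21.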

How the results depend on the processing

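The 9 lower members kept their direction under every alternative run, and the number called lower, 2 as deposited, ranged from 0 to 9. The share of all probe sets called lower, 2.60% as deposited, moved too. Members called were 5 with quantile normalization (2.36% of all) or array weights (3.21%), and 6 with median centring (5.40%), an offset of 16 (4.24%), the filter on dim probe sets (6.50%) or the trended and robust prior (8.24%). They were 9 with centring on the hybridization controls (13.6%) or an offset of 100 (8.08%), 0 with centring on Actb (0.906%) and with the replicate block, and 0 to 4 with 1 array left out (0.169% to 2.78%).

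Over all probe sets 1173 were called lower and 1643 higher by limma. Lower calls were 2433 with median centring, 6129 with the hybridization controls, 408 with Actb, 1908 with an offset of 16, 3639 with 100, 2222 with the dim filter, 3713 with the trended prior and 76 to 1250 with 1 array left out. Higher calls were 593 with the hybridization controls, 1074 with Actb, 3476 with an offset of 100, 3123 with the trended prior and 384 to 1367 with 1 array left out. The replicate block gave 0 lower and 0 higher calls, with 4397 and 5951 at an unadjusted p under 0.05, and the smallest exact p of a paired difference is then 0.125. Ciita 1421210_at reversed to -0.57 with the hybridization controls.

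None of the 9 within-array differences passed as deposited, and so few arrays leave little room for one to pass, so the alternatives give values only. With 1 array left out, 3 of them changed sign: Cd74 minus the chain genes ran from -0.089 to 0.063, H2-DMa minus H2-DMb1 from -0.12 to 1.05 and the H2-Ab1 probe sets from -0.53 to 0.13. The causes of these shifts were not tested. Without hypoxia 2, 4 members were called, and without any other 1 array none was. Dim values limit what can be said of the H2-DM and Ciita sizes.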
